A study of Mus musculus with 12 samples.

Results

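The genes described here were 10 cyclic nucleotide phosphodiesterases (Pde10a, Pde1a, Pde1b, Pde1c, Pde2a, Pde4a, Pde4b, Pde4d, Pde7b and Pde8b), taken by symbol from the 19248 genes that an Affymetrix whole-transcript array measured in mouse striatum. All 10 were found, each through a probe set with a single gene symbol, and the brighter probe set was used for Pde4d, the only member with 2. Pde10a, Pde1b and Pde7b are treated as the striatum-enriched members and the other 7 as the remaining members. The study crossed a Huntington's disease (HD) model mouse with a knockout of p62, the autophagy cargo receptor encoded by Sqstm1, and took striatum at 8 weeks. There were 4 groups of 3 mice. They were non-transgenic mice with intact p62 (NT_p62WT, genotype NT;p62+_+), non-transgenic mice lacking p62 (NT_p62KO, NT;p62-_-), HD mice with intact p62 (HD_p62WT, HD;p62+_+) and HD mice lacking p62 (HD_p62KO, HD;p62-_-). The labels name neither the HD line nor its promoter, so the sources used here do not say which cells carry the transgene, and give no strain or sex. Each value is the log2 expression of a probe set, so a difference of 1 is a doubling on the array's scale, and the level of a probe set cannot be set against that of another gene.

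Phosphodiesterases hydrolyse the second messengers cAMP and cGMP and so limit signals that reach protein kinase A (PKA) and protein kinase G. In the striatum most neurons are medium spiny projection neurons, in which dopamine acts through the D1 receptor to raise cAMP and through the D2 receptor to lower it. Pde10a, which hydrolyses both messengers, is highly enriched in these neurons. Pde1b is activated by calcium and calmodulin, and Pde7b is specific for cAMP. Loss of striatal Pde10a is a known feature of Huntington's disease and its mouse models.

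The sequences upstream of the members the results turn on are given first, so that the genes can be placed. Coordinates and sequences are those of RefSeq on GRCm38.p6, and each window holds the 250 bases before an annotated transcript start. Pde10a lies at chr17:8525187-8986648, and its windows are chr17:8801495-8801744 and chr17:8849735-8849984, both on the plus strand. Pde1b lies at chr15:103503034-103530056, and the first of its 3 windows is chr15:103502784-103503033 on the plus strand. The single Pde7b window is chr10:20548329-20548578 on the minus strand, within the gene at chr10:20397052-20725078. The single Pde4d window, shown because Pde4d moved the other way, is chr13:108653927-108654176 on the plus strand, just before the gene at chr13:108654177-109955969. Capitals mark the GC box GGGCGG and the core TGACG of the cAMP response element (CRE), on either strand.
Pde10a window 1: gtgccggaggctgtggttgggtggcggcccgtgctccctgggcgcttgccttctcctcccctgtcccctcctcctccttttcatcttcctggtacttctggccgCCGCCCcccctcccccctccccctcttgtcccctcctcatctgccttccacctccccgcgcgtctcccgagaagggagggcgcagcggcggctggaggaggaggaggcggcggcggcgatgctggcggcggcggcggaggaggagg
Pde10a window 2: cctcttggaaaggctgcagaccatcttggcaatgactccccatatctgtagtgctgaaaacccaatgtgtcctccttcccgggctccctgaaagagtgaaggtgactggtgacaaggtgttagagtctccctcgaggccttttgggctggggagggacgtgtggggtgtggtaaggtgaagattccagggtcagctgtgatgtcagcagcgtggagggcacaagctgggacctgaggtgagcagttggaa
Pde1b window 1: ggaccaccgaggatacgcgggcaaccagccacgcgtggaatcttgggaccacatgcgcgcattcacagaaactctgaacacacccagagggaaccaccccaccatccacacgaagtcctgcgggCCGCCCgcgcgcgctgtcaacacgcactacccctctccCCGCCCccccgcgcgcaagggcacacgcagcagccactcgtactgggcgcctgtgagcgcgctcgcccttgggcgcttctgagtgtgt
Pde7b window 1: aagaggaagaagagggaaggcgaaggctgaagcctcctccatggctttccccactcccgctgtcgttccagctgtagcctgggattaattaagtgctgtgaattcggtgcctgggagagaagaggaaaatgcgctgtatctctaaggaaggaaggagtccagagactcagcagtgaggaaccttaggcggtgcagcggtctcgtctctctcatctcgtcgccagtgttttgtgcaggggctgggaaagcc
Pde4d window 1: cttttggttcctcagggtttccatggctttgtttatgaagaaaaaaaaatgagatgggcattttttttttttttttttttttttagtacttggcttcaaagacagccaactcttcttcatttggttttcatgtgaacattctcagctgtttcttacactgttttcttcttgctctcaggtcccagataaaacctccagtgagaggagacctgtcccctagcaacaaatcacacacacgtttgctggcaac
The first Pde10a window was 72.8% G and C and held 1 GC box, while the second was 56.0% G and C and held none. The Pde1b window was 67.2% G and C with 2 GC boxes. The Pde7b window (55.2%) and the Pde4d window (38.8%) held neither motif, against a median of 52.4% G and C over all 32851 windows of this length.

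Across the 31 windows of the 10 members, 5 motifs were searched on both strands. The GC box was in 7 windows, from Pde10a, Pde1b, Pde2a, Pde4a and Pde8b, and in 32.7% of all windows. Windows of a gene can overlap. The Pde8b windows with GC boxes, chr13:95223051-95223300 and chr13:95223093-95223342, share the same boxes, which were counted in both. TGACG was in 3, from Pde1a, Pde4a and Pde4b, and in 17.8% of all windows. The full CRE, TGACGTCA, which contains this core, was in 0 of 31 and in 1.55% of all. TATAAA was in 2 windows, both of Pde1a, and in 12.4% of all, and the EGR site GCGTGGGCG was in 0 and in 0.536% of all. These matches describe letters in the windows and are not binding sites.

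The labels were checked first on Sqstm1. It lay between 8.44 and 9.13 in the 6 mice lacking p62 and between 11.19 and 11.75 in the 6 others, so no mouse went against its p62 label. Drd1, Drd2, Penk and Ppp1r1b, which mark striatal projection neurons, had group means of 9.995 or more in every group. Other markers of these neurons were dimmer. Group means of Pdyn ran from 8.08 in HD_p62WT to 8.61 in NT_p62KO, and those of Six3 from 7.67 in NT_p62KO to 7.80 in HD_p62WT. Levels of different genes cannot be compared here, so these values only describe the tissue. Array medians ran from 7.70 to 7.73. The SD of the log2 values over all probe sets ran from 1.79 to 1.87 in HD mice and from 1.73 to 1.82 in non-transgenic mice. HD effects with this spread as a covariate are given below. Tests are limma's, fitted over all 12 arrays with p-values adjusted over the 19248 genes, and a gene passed at an adjusted p under 0.05.

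Pde10a was lower in every HD mouse than in every non-transgenic mouse. Its log2 value was 11.94, 11.73 and 11.93 in the NT_p62WT mice and 11.88, 12.02 and 11.87 in the NT_p62KO mice. In HD_p62WT it was 11.05, 11.14 and 11.11, and in HD_p62KO it was 10.95, 11.04 and 10.96. The lowest non-transgenic mouse therefore stood well above the highest HD mouse, and the 3 HD_p62KO mice lay just below the 3 HD_p62WT mice. Group means were 11.86 ± 0.12 (SD, n = 3), 11.93 ± 0.086, 11.10 ± 0.045 and 10.98 ± 0.048 in the same order. With intact p62 the HD minus non-transgenic difference was -0.76 ± 0.075 on the log2 scale (SE; adjusted p = 0.000336 by limma), so that the level fell by 41.1%. Without p62 the difference was -0.94 ± 0.075 (limma adjusted p = 4.28e-05), so that it fell by 48.0%. The mean of both was -0.85 (95% interval -0.97 to -0.74; limma adjusted p = 2.74e-06), for which the level fell by 44.7%. By p-value Pde10a ranked 16th, 12th and 11th of 19248 genes in these comparisons. In whole striatum, fewer cells of a type and less RNA per cell cannot be told apart.

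Pde1b fell in HD as well, by less on the array's scale. It was 11.95, 11.78 and 11.93 in NT_p62WT and 11.86, 12.01 and 11.85 in NT_p62KO. It was 11.46, 11.38 and 11.44 in HD_p62WT and 11.30, 11.31 and 11.17 in HD_p62KO. The HD mice were again all below the non-transgenic mice, with the HD_p62KO mice lowest. The log2 difference was -0.46 ± 0.075 with intact p62 (limma adjusted p = 0.00555) and -0.64 ± 0.075 without it (limma adjusted p = 0.000466). Averaged over p62 genotypes, Pde1b was 1.47-fold lower. The call with intact p62 was lost when the 3 arrays of smallest spread were left out (-0.35, limma adjusted p = 0.179). These were NT_p62WT replicates 1 and 3 and NT_p62KO replicate 3, so this value rests on 1 NT_p62WT mouse, assumed to vary like the other groups.

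Pde7b, the cAMP-specific member of this trio, showed the smallest fall on the array's scale. It was 11.48, 11.34 and 11.48 in NT_p62WT and 11.43, 11.62 and 11.29 in NT_p62KO. It was 11.20, 11.21 and 11.21 in HD_p62WT and 11.14, 11.05 and 10.98 in HD_p62KO. No HD mouse reached the lowest non-transgenic mouse, but the gap between them was under 0.1. The difference with intact p62, -0.23 ± 0.086, did not pass (limma adjusted p = 0.117). Without p62 it was -0.39 ± 0.086 (limma adjusted p = 0.0116), and the mean was -0.31 ± 0.061 (limma adjusted p = 0.00306), or 1.24-fold lower.

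**Figure D1:**
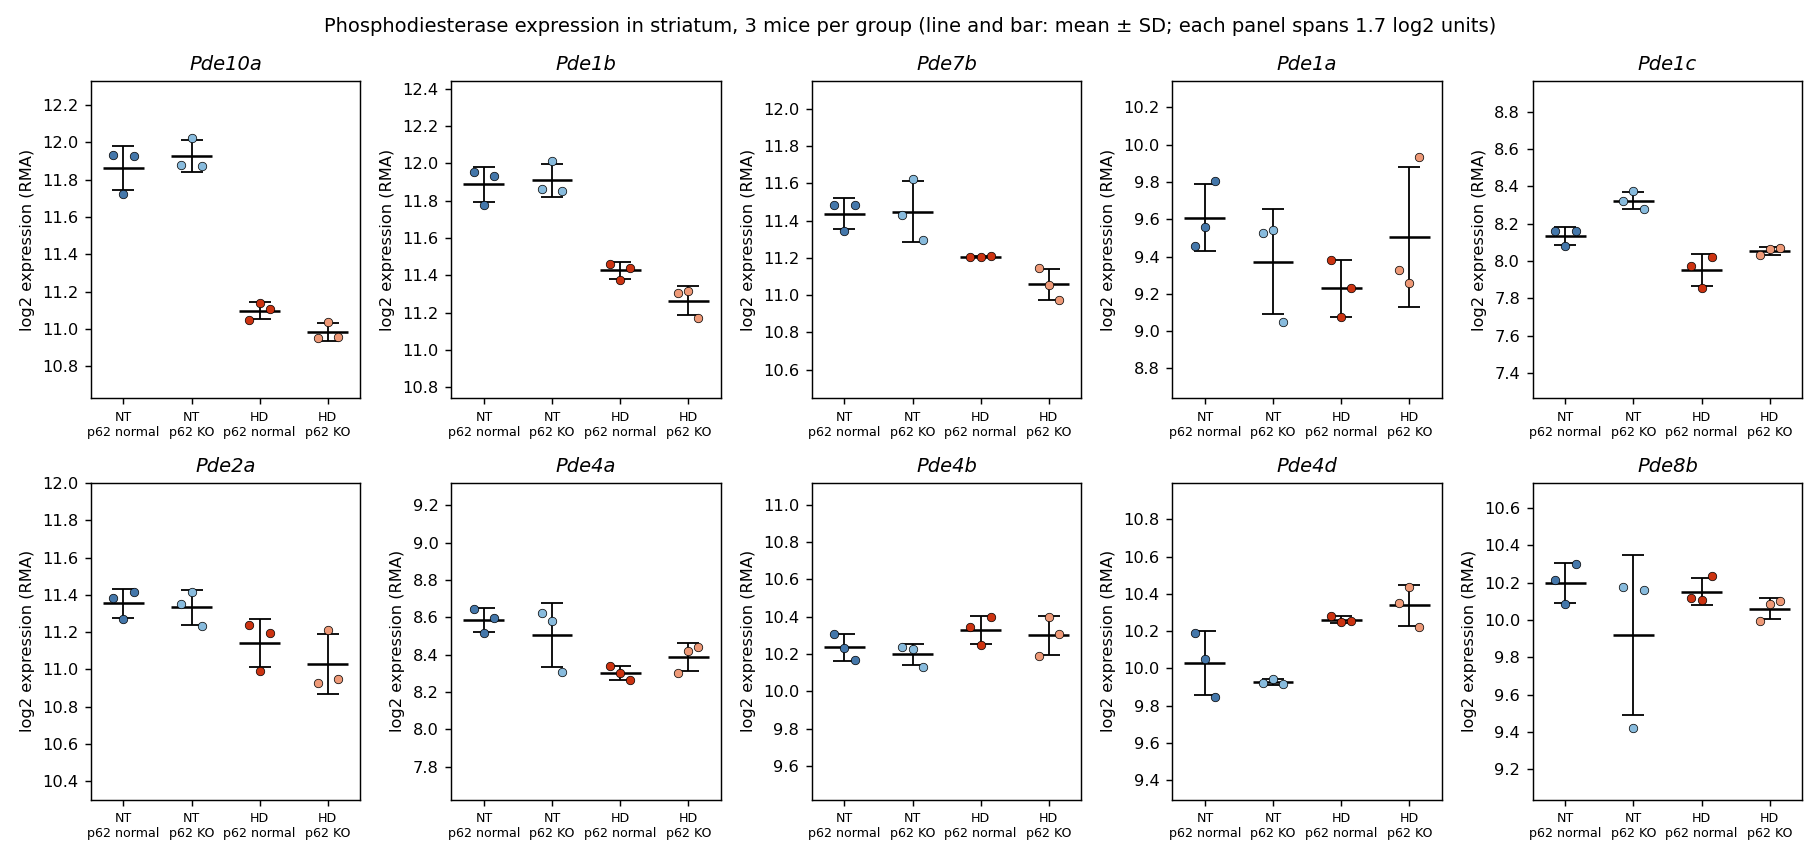
Log2 expression of the 10 phosphodiesterases in each of the 12 mice (points), by group on the x axis, with the group mean and SD (line and bar, n = 3). The y axes are log2 values, each panel spanning the same number of log2 units, and Pde10a shows the widest gap, from 11.73 or more in non-transgenic mice to 11.14 or less in HD mice.

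The probe set signals of the 3 striatum-enriched genes did not fall by equal amounts. For each mouse the log2 difference between a pair of genes was taken within its array and counted from the mean of the 6 non-transgenic mice. Pde10a minus Pde1b was -0.32 ± 0.087 (SD, n = 3) in HD_p62WT and -0.28 ± 0.068 in HD_p62KO. Pde10a minus Pde7b was -0.56 ± 0.043 and -0.53 ± 0.10 in these groups. Pde1b minus Pde7b was -0.24 ± 0.045 and -0.25 ± 0.051. In each pair all 6 HD mice lay below all 6 non-transgenic mice. The fall in probe set signal was thus larger for Pde10a than for Pde1b, and larger for Pde1b than for Pde7b. The HD minus non-transgenic difference was -0.30, -0.54 and -0.24 for the 3 pairs. An exact two-sided permutation test of HD status within p62 genotype gave p = 0.005 for each, the smallest that its 400 assignments allow, and 0.005 after adjustment over the 3 pairs. With any 1 mouse left out the differences stayed between -0.32 and -0.28, -0.56 and -0.51, and -0.26 and -0.22. Probe sets can differ in how much of a change they register. The 2 probe sets of Pde4d gave mean HD differences of 0.32 and 0.71. Whether the RNA levels of the 3 genes fell unequally was therefore not tested.

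**Figure D2:**
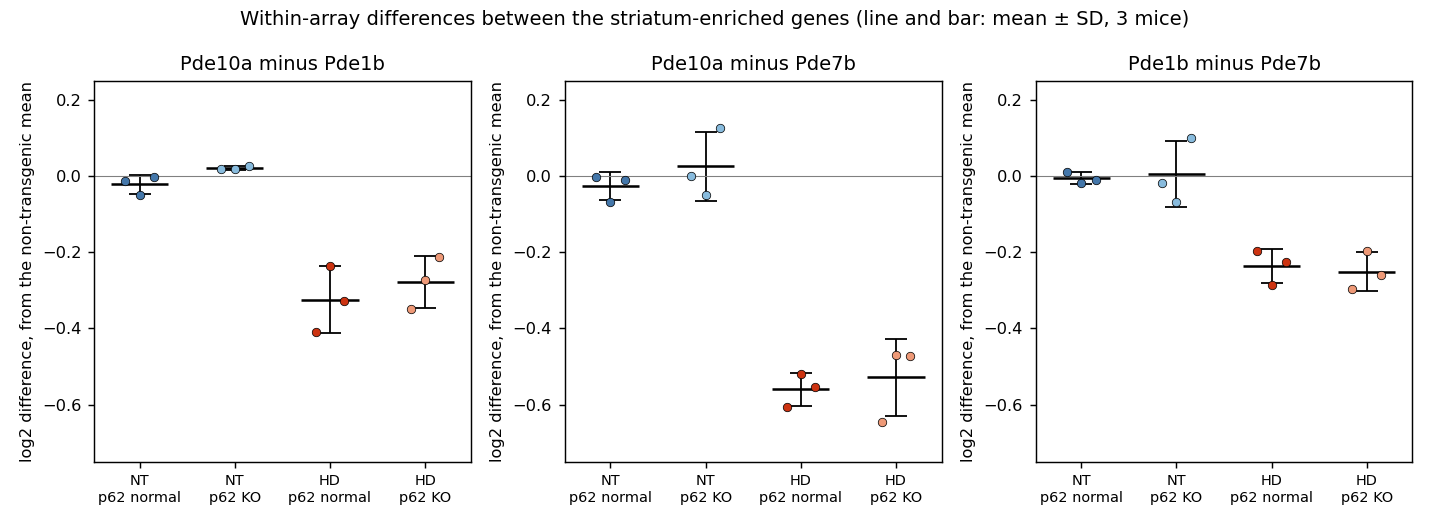
Within-array log2 difference between pairs of striatum-enriched phosphodiesterases on the y axis, counted from the mean of the 6 non-transgenic mice, for the 4 groups on the x axis (points, mice; line and bar, mean and SD, n = 3). All 6 HD mice lie below all 6 non-transgenic mice in each panel, with group means near -0.56 and -0.53 for Pde10a minus Pde7b.

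Among the remaining members, Pde4d was the only one whose rise passed. It encodes a cAMP-specific enzyme of the family that rolipram inhibits. Its values were 10.19, 10.05 and 9.85 in NT_p62WT and 9.92, 9.94 and 9.91 in NT_p62KO. They were 10.28, 10.25 and 10.25 in HD_p62WT and 10.35, 10.44 and 10.22 in HD_p62KO. Every HD mouse was above every non-transgenic mouse, though NT_p62WT replicate 1 came close. The rise was 0.41 ± 0.087 without p62 (limma adjusted p = 0.00965) and 0.32 ± 0.061 on average (limma adjusted p = 0.00266). With intact p62 the value, 0.23 ± 0.087, did not pass (limma adjusted p = 0.12), and it was 0.14 without NT_p62WT replicate 3. The other Pde4d probe set, dimmer and not used above, gave 0.66 ± 0.15 with intact p62 (limma adjusted p = 0.0278) and 0.76 ± 0.15 without it (limma adjusted p = 0.0081), so the probe sets had the same direction but differed in size. With array spread as a covariate the call without p62 was lost (0.39, limma adjusted p = 0.0795).

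The other cAMP-specific PDE4 genes did not rise past the threshold. Pde4a was 8.64, 8.52 and 8.60 in NT_p62WT, 8.63, 8.58 and 8.31 in NT_p62KO, 8.34, 8.30 and 8.27 in HD_p62WT and 8.30, 8.42 and 8.44 in HD_p62KO. NT_p62KO replicate 3 fell among the HD mice. Its mean HD difference passed at -0.20 ± 0.061 (limma adjusted p = 0.0245), while the difference with intact p62 (-0.28) and without it (-0.12) did not (limma adjusted p = 0.0656 and 0.326). The value without p62 was -0.06 without NT_p62KO replicate 1 and -0.22 without NT_p62KO replicate 3. The mean call was lost without HD_p62WT replicate 3 (limma adjusted p = 0.0572), NT_p62KO replicate 1 (0.0556), NT_p62WT replicate 1 (0.0576) or NT_p62WT replicate 3 (0.0505). Leaving out NT_p62KO replicate 3 brought the difference with intact p62 past the threshold (limma adjusted p = 0.0213). Pde4b lay between 10.13 and 10.31 in non-transgenic mice and between 10.19 and 10.40 in HD mice, and these ranges overlapped. Its mean HD difference was 0.10 ± 0.053 (95% interval -0.016 to 0.21; limma adjusted p = 0.159).

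Of the other calcium and calmodulin-activated enzymes, Pde1c fell and Pde1a did not pass. Pde1c was 8.16, 8.08 and 8.16 in NT_p62WT, 8.32, 8.37 and 8.28 in NT_p62KO, 7.97, 7.86 and 8.02 in HD_p62WT and 8.03, 8.06 and 8.07 in HD_p62KO. The HD mice were all below the non-transgenic mice, by a small margin. The mean HD difference was -0.23 ± 0.046 (limma adjusted p = 0.00359). Without p62 it was -0.27 ± 0.065 (limma adjusted p = 0.0157), a call lost without HD_p62KO replicate 2 (limma adjusted p = 0.0534), and with intact p62 it was -0.18 (limma adjusted p = 0.104). Pde1a varied more within groups, with SDs from 0.15 to 0.37. It was 9.46, 9.56 and 9.81 in NT_p62WT, 9.53, 9.54 and 9.05 in NT_p62KO, 9.38, 9.07 and 9.23 in HD_p62WT and 9.33, 9.26 and 9.93 in HD_p62KO. With intact p62 the groups did not overlap, but the difference of -0.38 ± 0.18 did not pass (limma adjusted p = 0.216). Without p62 the difference was 0.13 ± 0.18 (limma adjusted p = 0.599), and NT_p62KO replicate 3 was the lowest and HD_p62KO replicate 3 the highest of all 12 mice. This value has no settled sign: it was -0.08 without HD_p62KO replicate 3, -0.03 without NT_p62KO replicate 3 and -0.16 with array spread as a covariate.

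Pde2a, which cGMP stimulates to hydrolyse cAMP, was lower in HD on average. It ran from 11.23 to 11.42 in non-transgenic mice and from 10.93 to 11.24 in HD mice, so that HD_p62WT replicate 1 and NT_p62KO replicate 3 overlapped. The mean difference was -0.26 ± 0.068 (limma adjusted p = 0.0129). Without p62 it was -0.30 ± 0.096 (limma adjusted p = 0.0418), a call lost with any of 8 mice left out, at adjusted p from 0.0527 to 0.135 (HD_p62KO 1 and 3, HD_p62WT 3, NT_p62KO 1, 2 and 3, NT_p62WT 1 and 3). With intact p62 the value was -0.21 (limma adjusted p = 0.186). Pde8b, a cAMP-specific enzyme, ran from 9.42 to 10.30 in non-transgenic mice and from 9.996 to 10.24 in HD mice, and its low value was NT_p62KO replicate 2. Its mean HD difference was 0.05 (95% interval -0.20 to 0.29; limma adjusted p = 0.759), and it was -0.08 without that mouse and 0.15 with array spread as a covariate.

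Counted together, 2 of the 10 members fell and 0 rose in HD with intact p62, where 7.1% of all genes passed in either direction, 3.24% lower and 3.85% higher. Without p62, 5 fell and 1 rose, against 21.7% of all genes passing, 8.34% lower and 13.3% higher. For the mean HD effect 6 fell, 1 rose and 3 did not pass, against 35% of all genes, 15% lower and 19.9% higher. The median mean HD difference was -0.21 over the 10 members, -0.55 over the 3 striatum-enriched members, -0.12 over the other 7 and -0.02 over all genes. The groups did not overlap for 8 members with intact p62 (33.1% of all genes), for 6 without p62 (39.4%) and for 5 when all HD mice were set against all non-transgenic mice (16.2%). Per mouse, the mean of the 3 enriched genes minus the mean of the other 7, counted from the non-transgenic mean, was -0.43 ± 0.065 in HD_p62WT and -0.62 ± 0.11 in HD_p62KO. This is a description without a test.

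**Figure D3:**
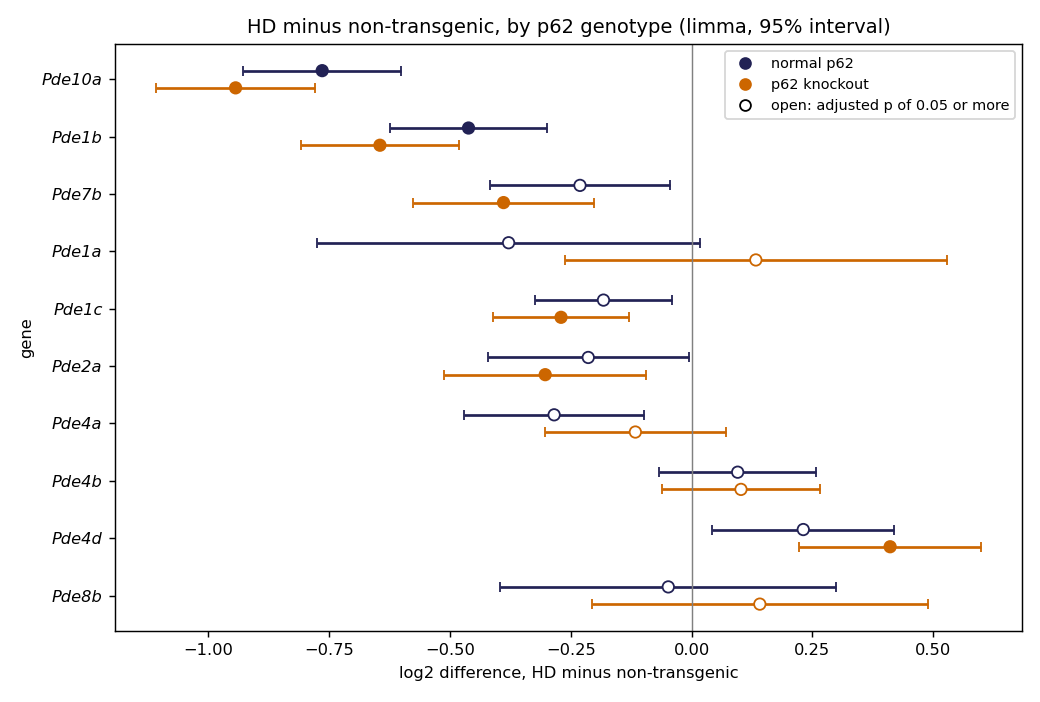
Log2 difference of HD minus non-transgenic mice (x axis) for each phosphodiesterase (y axis), with intact p62 and with p62 knockout, as limma estimates with 95% intervals. Filled points passed an adjusted p of 0.05, and Pde10a lies farthest left at -0.76 and -0.94.

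Loss of p62 by itself moved no member past the threshold. In non-transgenic mice 0 of 10 passed limma's test, as did 0.0052% of all genes, which is Sqstm1 alone. In HD mice 0 of 10 passed, again against 0.0052%. At an unadjusted p under 0.05 there was 1 member in non-transgenic mice, among 639 genes, and 0 in HD mice, among 555 genes. That member was Pde1c, higher without p62 in all 3 mice by 0.19 ± 0.065 (unadjusted p = 0.0122, adjusted p = 1). Markers of choroid plexus and ependyma differed between the same mice, with a summed log2 level over 10 genes of 79.0 to 81.2 in NT_p62KO and 72.5 to 74.3 in NT_p62WT. With their mean as a covariate the Pde1c difference was 0.20 ± 0.083. Groups did not overlap for 1 member in non-transgenic mice, Pde1c, against 7.87% of all genes.

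In HD mice 5 of the 10 members had non-overlapping values with and without p62, against 7.38% of all genes. Pde10a (-0.12 ± 0.075), Pde1b (-0.16 ± 0.075), Pde7b (-0.15 ± 0.086) and Pde8b (-0.09 ± 0.16) were lower in all 3 mice lacking p62 and Pde1c (0.10 ± 0.065) was higher. The smallest unadjusted p of these was 0.0508, for Pde1b, and all adjusted p-values were 1. For Pde10a the 95% interval ran from -0.28 to 0.05 in HD mice and from -0.10 to 0.23 in non-transgenic mice.

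Whether the HD effect itself differed with p62 was tested as the difference of the HD effects. None of the 10 members passed limma's test, and 0 of 19248 genes did (0% called). At an unadjusted p under 0.05 there were 0 members and 665 genes. The difference, without p62 minus with it, was -0.18 ± 0.11 for Pde10a (95% interval -0.41 to 0.05), -0.18 ± 0.11 for Pde1b and -0.16 ± 0.12 for Pde7b. It was -0.11 for Pde10a without NT_p62WT replicate 2. For Pde7b it was -0.07 without NT_p62KO replicate 2. The largest estimate was that of Pde1a, 0.51 ± 0.26 (unadjusted p = 0.0696, adjusted p = 0.991), and it was 0.30 without HD_p62KO replicate 3. The HD effects with and without p62 rest on different mice, and each passed or missed its own threshold, so a call in one p62 genotype alone is not a difference between them.

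**Figure D4:**
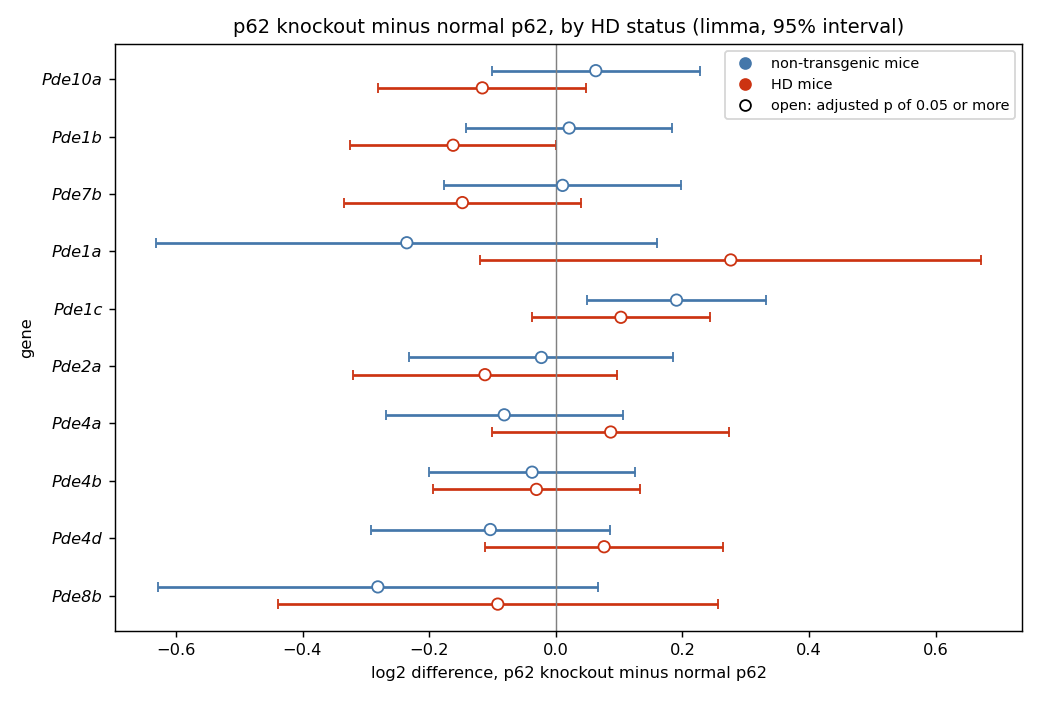
Log2 difference of p62 knockout minus intact p62 (x axis) for each phosphodiesterase (y axis), in non-transgenic and in HD mice, as limma estimates with 95% intervals. All points are open, since none passed an adjusted p of 0.05, and the Pde1c interval in non-transgenic mice is above 0 (0.05 to 0.33).

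Genes whose profile over the 12 mice was most like that of Pde10a were found by the root mean square difference between log2 profiles, each centred on its own mean. These were Adcy5 (0.048), Rgs9 (0.065), Chrm4 (0.067), Gsg1l (0.067) and Cntnap3 (0.074). All 5 fell in HD, by 0.75 to 0.93 on the log2 scale for the mean HD effect, which this measure of likeness favours. Pde1b ranked 74th among all other genes on this measure and Pde7b 460th. The other members ranked from 917th (Pde2a) to 17488th (Pde4d).

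The remaining genes of the pathway were taken from lists, and the counts below are for the mean HD effect, for which 19.9% of all genes were higher and 15% lower. Of 14 other genes listed by phosphodiesterase symbol, whatever their product does, all were measured. Of these 2 rose, 2 fell and 10 did not pass, with a median of -0.03. Pde3b, which cGMP inhibits, rose by 0.50 ± 0.078 (limma adjusted p = 0.000975). With array spread as a covariate its rise was smaller, at 0.35 ± 0.083, and passed (limma adjusted p = 0.0249). Pde7a, the close relative of Pde7b, rose by 0.36 ± 0.12 (limma adjusted p = 0.0366), a call lost without HD_p62KO 2, HD_p62WT 1 or 3, NT_p62KO 1 or 3, or NT_p62WT 2 or 3 (adjusted p from 0.0617 to 0.0902). With array spread as a covariate Pde7a was at 0.16 and did not pass (limma adjusted p = 0.538). The photoreceptor genes Pde6a (-0.22) and Pde6c (-0.23) fell, and with the same covariate they were at -0.08 and -0.12 and did not pass. Pde6d, the brightest gene of this list that did not pass, was at 0.14.

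On the synthesis side, 21 of 23 listed cyclases were measured, of which 2 rose, 6 fell and 13 did not pass (median -0.12). Adcy5, the main striatal adenylyl cyclase, fell by 0.81 ± 0.055 on the log2 scale (limma adjusted p = 5.06e-06), and Adcy9 fell by 0.23. Gucy2f and Npr2, membrane guanylyl cyclases, rose by 0.43 and 0.39, and Gucy1b1, a subunit of the soluble cyclase, was at 0.04 and did not pass. Gucy2f was dim, with group means from 5.91 in NT_p62WT to 6.38 in HD_p62KO, below the 25th percentile of all genes (6.73). The count that fell was 3 without NT_p62WT replicate 3.

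Of 27 listed effectors 24 were measured, and 5 rose, 1 fell and 18 did not pass (median -0.10). Prkg1, the cGMP-dependent kinase, rose by 0.45 ± 0.054 (limma adjusted p = 0.000207). It was dim, with group means from 6.12 in NT_p62WT to 6.63 in HD_p62KO, below the 25th percentile of all genes (6.73). The PKA regulatory subunit gene Prkar1a rose by 0.35, the catalytic subunit gene Prkacb by 0.32 and the PKA inhibitor gene Pkia by 0.37. With array spread as a covariate the rises of Prkar1a and Pkia were smaller, at 0.22 and 0.21, and both passed. Rapgef2 was at -0.11 and did not pass. The count that fell ranged from 0 to 3 with 1 mouse left out: it was 0 without HD_p62KO 2 or 3, HD_p62WT 1 or 3, NT_p62KO 3, or NT_p62WT 1 or 3, 2 without HD_p62WT 2 or NT_p62KO 2, and 3 without NT_p62KO 1.

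Of 22 PKA targets and anchoring proteins 21 were measured, and 4 rose, 6 fell and 11 did not pass (median -0.02). Ppp1r1b, which encodes DARPP-32, fell by 0.64 ± 0.069 on the log2 scale (limma adjusted p = 9.59e-05). Ppp1r1a, an inhibitor of the same phosphatase, fell by 0.74, and the cAMP-regulated phosphoproteins Arpp19 and Arpp21 fell by 0.64 and 0.43. The anchoring protein gene Akap11 was at 0.02 and did not pass. The count that rose was 1 or 2 without HD_p62KO 2 or 3, HD_p62WT 1 or 3, NT_p62KO 1 or 3, or NT_p62WT 1 or 3.

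Of 22 receptors and G protein genes upstream of the cyclases 16 were measured, and 2 rose, 9 fell and 5 did not pass (median -0.18). Chrm4, the M4 muscarinic receptor, fell by 0.79 ± 0.053 on the log2 scale (limma adjusted p = 5.06e-06). Rgs9, a GTPase-activating protein, fell by 0.75, the D2 receptor gene Drd2 by 0.59 and the D1 receptor gene Drd1 by 0.49. Gnao1 was at -0.10 and did not pass. The count that fell ran from 6 to 10 with 1 mouse left out, and the count that rose was 1 without HD_p62KO 2 or 3, HD_p62WT 1 or 3, NT_p62KO 2 or 3, or NT_p62WT 1 or 3.

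**Figure D5:**
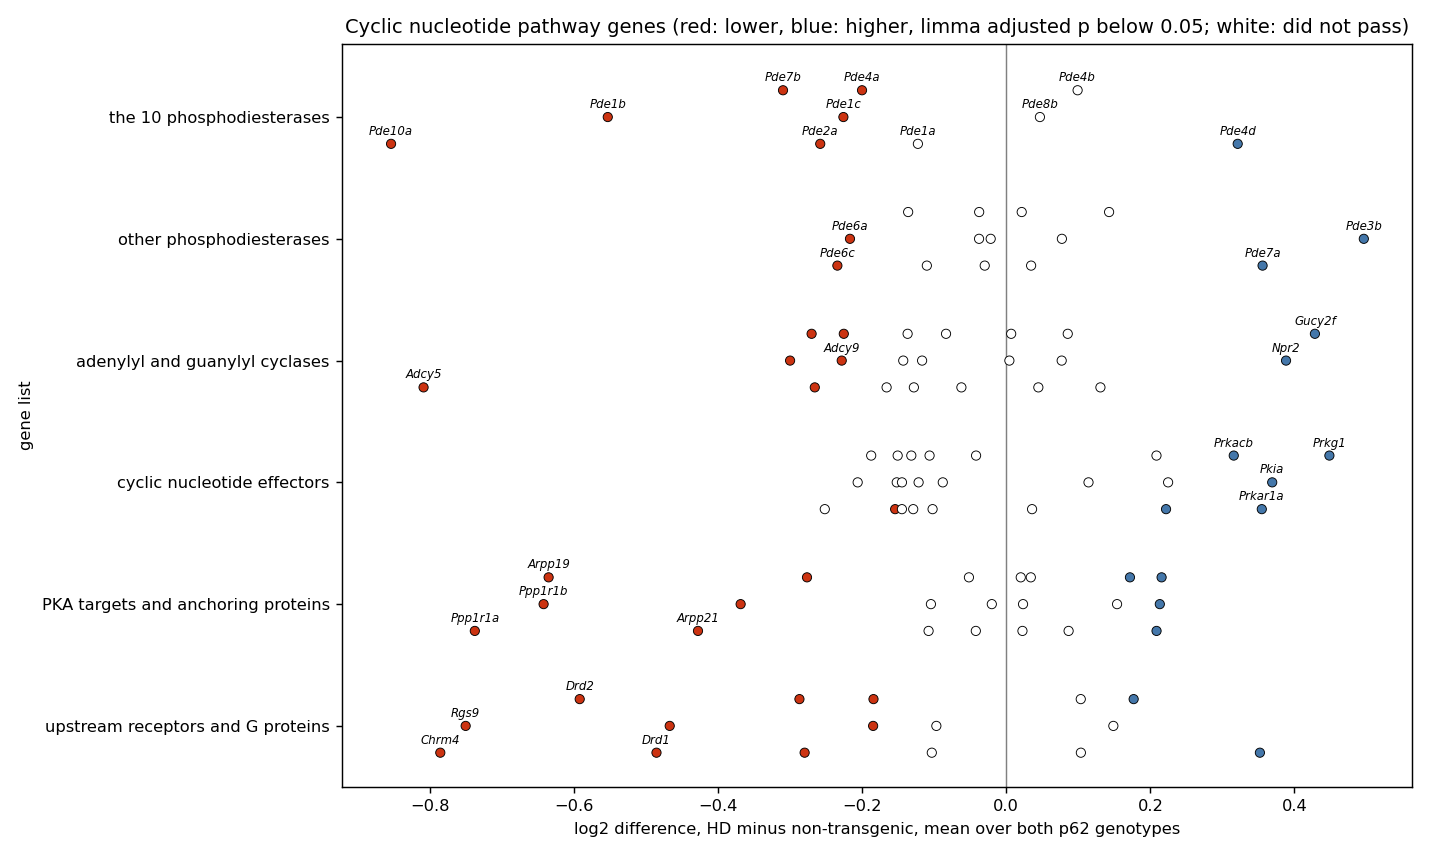
Mean HD effect (x axis, log2 difference of HD minus non-transgenic mice) of each measured gene in the lists on the y axis. Red points fell and blue points rose at a limma adjusted p under 0.05, white points did not pass, and Pde10a (-0.85) and Adcy5 (-0.81) lie farthest left in their lists.

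Cell type markers were counted for the mean HD effect as well, for which 19.9% of all genes were higher and 15% lower. Their part in the results above was not tested. Of 14 measured projection neuron markers 9 fell, 4 rose and 1 did not pass. Their summed log2 level was 142.4 to 144.6 in NT_p62WT, 143.4 to 145.9 in NT_p62KO, 141.7 to 142.1 in HD_p62WT and 140.2 to 141.4 in HD_p62KO. Penk, the enkephalin precursor of D2 neurons, fell by 0.60 on the log2 scale, while Tac1, the substance P precursor of D1 neurons, rose by 0.28. Other D1 neuron genes went the other way from Tac1. Pdyn, the dynorphin precursor, had group means of 8.52 in NT_p62WT, 8.61 in NT_p62KO, 8.08 in HD_p62WT and 8.10 in HD_p62KO. Drd1 fell as well, as given above. Of 11 interneuron markers 8 fell, and their sum was 93.2 to 97.4 in non-transgenic and 88.7 to 92.8 in HD mice. Of 13 cortical excitatory neuron markers 3 fell, with a sum of 101.2 to 110.3 in non-transgenic and 98.7 to 104.4 in HD mice. That count was 7 without NT_p62KO replicate 3. For glial, vascular and choroid plexus lists the counts that rose or fell were 1 and 2 of 10 astrocyte markers, 0 and 4 of 9 oligodendrocyte, 2 and 0 of 8 precursor, 1 and 0 of 9 microglial, 0 and 2 of 10 endothelial and mural, and 1 and 0 of 10 choroid plexus markers.

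The HD effects of the enriched members were no smaller when the spread of the arrays was in the fit. That spread itself went partly with HD status, at 1.79 to 1.87 in HD and 1.73 to 1.82 in non-transgenic mice. The 2 therefore cannot be fully told apart, and the part of array spread was not tested. With array spread as a covariate the mean HD difference was -0.87 ± 0.068 for Pde10a (limma adjusted p = 0.000114), -0.58 ± 0.066 for Pde1b (0.00069) and -0.35 ± 0.079 for Pde7b (0.0195). Pde4d was then at 0.30 ± 0.081 (0.0381), Pde2a at -0.39 ± 0.069 (0.00661) and Pde4b at 0.01 ± 0.053 (0.954). With the mean of the choroid plexus markers in the fit Pde10a was at -0.85 ± 0.056 (1.29e-05).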

How the data were processed

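Striatum of 12 mice was frozen, and 100 ng of total RNA per mouse was labelled for whole-transcript arrays, per the labels. The authors deposited RMA output, per the submitters' processing notes, on a log2 scale with 1 value per probe set and array. Its version and settings: not given in the sources used here. Since RMA normalizes the arrays against each other, a change common to most genes would be removed, and detection calls were not used here. Of 24055 probe sets, 19942 had 1 gene symbol, 1225 had several and 2888 were not listed; the brightest per gene gave 19248 genes. Number of columns not used: 0.

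Groups came from sample titles, which call the samples biological replicates. Each was taken as 1 mouse, and the spread that p-values measure is that between these samples. Group means were fitted with limma 3.58.1 in R 4.3.3 over the 12 arrays, with 8 residual and 4.14 prior degrees of freedom, and Benjamini-Hochberg adjustment over all genes. Pairs of genes were compared by exact permutation in Python 3.11.15. On simulated data with 19248 genes, with 100 genes shifted by each size, the fit found 88 at a log2 shift of 0.5 and 100 at a shift of 1 for the mean HD effect, against 30 and 81 for the difference of the HD effects. The simulated noise was independent between genes. Far fewer genes were shifted than the 6728 that passed for the mean HD effect in the data. These counts check the fit and do not give the power of the tests reported here.

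The members, gene lists and tests were chosen with earlier results of these data known. All members were named, and per list up to 4 genes with the smallest p that passed for the mean HD effect and the brightest that did not. Penk, Tac1, Pdyn, Drd1, Drd2 and Ppp1r1b were also named as tissue markers. The 5 genes nearest to Pde10a left out members and unnamed transcripts. Alternatives covered normalization, dim genes, probe sets, variance models, array quality, covariates, thresholds and left-out mice. The number of arrays limits the precision.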

Additional observations from a re-analysis of the deposited data

How the results depend on the processing

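No called value changed sign under any alternative tried, and Pde10a passed in all 3 HD comparisons under each, with mean HD differences from -0.92 to -0.80. With 1 mouse left out, 2 to 3 members passed in HD with intact p62, 5 to 6 without p62, 6 to 7 for the mean HD effect and 0 for the p62 effects and the difference of HD effects. For HD with intact p62 (2 members), 4 passed after renewed quantile normalization, 4 with array weights, 5 with array spread as a covariate and 1 without the 3 arrays of smallest spread, which leaves 1 NT_p62WT mouse, assumed to vary like the other groups. Without p62 (6 members), 3 passed at an adjusted p under 0.01 and 3 when only the 2 groups compared were fitted, where Pde7b was at adjusted p = 0.0515. For the mean HD effect (7 members), 4 passed without the 3 arrays of smallest spread, again with 1 NT_p62WT mouse and 2 NT_p62KO mice. The causes of the other shifts were not tested. An alternative chosen after seeing the data, leaving out the array of smallest spread in each of HD_p62KO, HD_p62WT and NT_p62KO, gave 3, 5 and 7 members.

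The same settings moved the counts over all genes. In HD with intact p62 (1366 genes) they gave 4625 with array weights, 110 without the 3 arrays, 715 with the choroid plexus covariate, 3320 in the alternative added later, and 421, 398, 441, 845 and 440 without HD_p62WT replicate 1 or 3 or NT_p62WT replicate 1, 2 or 3. Without p62 (4172 genes) they gave 6663, 1289 without the 3 arrays, 779 with array spread as a covariate, 1742 with only the 2 groups, and 1273, 1795 and 1876 without HD_p62KO replicate 2 or 3 or NT_p62KO replicate 3. For the mean HD effect (6728 genes) they gave 2228 without the 3 arrays and 2223 with array spread as a covariate. Thresholds of 0.01 and 0.1 gave 276 and 2799, and 969 and 6465, in the first comparisons, and 0.01 gave 3224 for the mean.

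The titles give each group the same replicate numbers. Over 18 pairs of same-numbered mice, correlations of deviations ran from -0.34 to 0.21, with 4 over 0.1, and 2 of 12 mice correlated best with their own number, so the numbers were not taken as pairing. With the replicate number as a block, 2, 5 and 7 members passed in the HD comparisons and 0 in the others, Pde2a without p62 being lost at adjusted p = 0.0741, and 709, 3054 and 5758 genes passed. Of settings for single genes and list counts, 2920 kept the call or a count within 1.5 times, 25 gained a call and 48 lost one. The other 143 were list counts that moved by over 1.5 times, or to or from 0.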
